A study of Rattus norvegicus with 4 samples.

Results

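The genes described here encode the cytoskeleton: actins, actin-related and Arp2/3 proteins, cofilins, tropomyosins, myosin heavy and light chains, unconventional myosins, tubulins with the gamma-tubulin complex, keratins, vimentin, desmin, neurofilaments and adducins. A spot was taken as a member when a symbol of one of these families was listed for it in the platform's gene annotation. The rule used no measured value, but it was chosen with earlier results of these data known. The rule found 83 of the 7688 spots on the array. These are 47 cDNA clones, most of them printed on 2 spots each, of 5674 clones and unlisted spots in all. The 47 clones stand for 45 genes or gene groups, since Add1 and Myl12b have 2 clones each, and 5 clones are listed for several near-identical genes and are named by all of them. A ratio on all 4 arrays was available for 41 of the 47.

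Liver RNA was compared on 4 two-colour cDNA arrays, each of which takes up 2 differently dyed RNA samples at once and gives their ratio at every spot. Every array carried total RNA from the liver of a female Fischer rat that had received ciprofibrate at 50 mg per kg of body weight each day for 60 days. The other channel held one pool of total liver RNA from 5 control rats, so the controls count as a single sample and how much they differ from each other is unknown. The labels do not give the age of the animals, any agent given to the controls, or which of the 4 treated rats is on which array. The arrays were treated as separate rats, and replicate numbers only name the arrays. Ciprofibrate is a fibrate; in rats it acts through the receptor PPARα and brings growth of the liver and of its peroxisomes.

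The values are log2 ratios, centred on the median of each array. Channel 1 is labelled as treated liver and channel 2 as the pool, with no dye given for either, so a positive ratio means likely more transcript after treatment. Of 12 measured textbook PPARα target genes, 7 had a positive and 5 a negative mean, with 3 positive calls and 1 negative. Over all clones 13.6% were called positive and 15.0% negative. With the slide-position surface described below removed, the list had 2 positive calls and 1 negative, on another gene (Cpt1a), and a median of -0.025. These counts bear on the sign only narrowly. If the sign were turned, every positive call below would be negative. A clone is called when the mean of its 4 ratios differed from 0 at a Benjamini-Hochberg adjusted p under 0.05 in limma, fitted over all 4704 clones with a ratio on each array. Only ratios are given, so the abundance of no transcript is known, and fewer cells of a type cannot be told apart from less RNA per cell.

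Actin filaments are built from actin monomers, branched by the Arp2/3 complex, severed by cofilins, coated by tropomyosins and pulled by myosins. Microtubules grow from gamma-tubulin rings as polymers of tubulin. Intermediate filaments are assembled from keratins in epithelial cells and from desmin or vimentin in mesenchymal ones. In liver, hepatocytes carry a dense actin web around the bile canaliculi and a single pair of keratins, Krt8 and Krt18, while stellate cells, the vitamin A-storing cells beside the sinusoids, carry desmin and, when activated, the smooth muscle actin Acta2. Most sarcomeric actins and myosins belong to heart and skeletal muscle.

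Promoter windows of 4 called members are shown first: Actc1 and Myl1, sarcomeric genes with positive calls, because muscle motifs were found in them, and Add1 and Arpc1b, with negative calls that held in all 12 settings compared, as a contrast. They are 300 bases each, from 250 before to 50 after the annotated start, from RefSeq on the GRCr8 build. Capitals mark the motif named in each line.
Actc1, chr3:121271778-121272077, minus strand, CArG box: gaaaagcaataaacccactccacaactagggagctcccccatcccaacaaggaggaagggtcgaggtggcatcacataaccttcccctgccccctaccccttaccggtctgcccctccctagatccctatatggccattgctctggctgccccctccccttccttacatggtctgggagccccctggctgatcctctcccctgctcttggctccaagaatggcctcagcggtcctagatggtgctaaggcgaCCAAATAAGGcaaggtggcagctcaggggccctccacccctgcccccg
Myl1, chr9:75897750-75898049, minus strand, MEF2 site: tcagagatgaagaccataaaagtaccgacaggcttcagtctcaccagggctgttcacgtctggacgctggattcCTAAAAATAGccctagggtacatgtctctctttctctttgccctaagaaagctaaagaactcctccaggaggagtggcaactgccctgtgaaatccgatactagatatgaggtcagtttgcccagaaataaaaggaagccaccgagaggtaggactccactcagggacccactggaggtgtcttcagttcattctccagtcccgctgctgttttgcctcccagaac
Add1, chr14:80391683-80391982, minus strand, GC box: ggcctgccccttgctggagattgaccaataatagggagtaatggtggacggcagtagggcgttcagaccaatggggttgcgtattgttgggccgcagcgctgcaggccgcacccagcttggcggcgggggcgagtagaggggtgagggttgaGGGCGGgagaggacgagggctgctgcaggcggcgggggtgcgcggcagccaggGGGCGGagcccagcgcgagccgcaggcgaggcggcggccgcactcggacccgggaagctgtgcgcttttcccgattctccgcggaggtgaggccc
Arpc1b, chr12:14609439-14609738, minus strand, GC box: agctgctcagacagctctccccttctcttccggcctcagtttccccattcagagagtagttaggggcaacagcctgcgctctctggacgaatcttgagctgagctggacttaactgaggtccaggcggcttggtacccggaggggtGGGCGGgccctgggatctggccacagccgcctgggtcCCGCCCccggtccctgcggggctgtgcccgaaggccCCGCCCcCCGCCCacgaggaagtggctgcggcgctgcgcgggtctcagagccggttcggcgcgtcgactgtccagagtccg

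Of 51 gene identifiers listed for the members, 43 had at least 1 such window, 46 windows in all. Both strands were searched. The CArG box, the site of serum response factor in actin and myosin genes, was in 3 of the 46 windows, against 1.64% of all 33469 windows. They belong to Actc1, Myl3 and Myo1e, of which Actc1 had a positive call and the others none. The MEF2 site was in 1 window, one of the starts of Myl1, against 0.565% of all windows. The GC box, GGGCGG, was in 24 windows, or 52.2%, against 33.1% of all, and among genes of positive calls (Tpm1, Des, Cfl1) as well as negative ones (Add1, Myh10, Tpm3). The element bound by PPARα with its partner RXR, searched as AGGTCANAGGTCA, was in 0 of the 46 windows and in 0.0538% of all. Its single hexamer AGGTCA, which the longer element contains, was in 13.0% of the members' windows and 16.2% of all. These matches describe the windows and show no binding.

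The cytoskeletal clones went both ways. Of the 41 tested, 10 were called positive and 9 negative, and 22 were not called. Over all 4704 clones tested, 13.6% were called positive and 15.0% negative. The members' means ran from -1.69 to 0.79 with a median of 0.078, against a median of -0.0099 over all clones. Of the 41 members, 27 had the same sign on all 4 arrays, or 65.9% against 52.8% of all clones. The 3 members that differed by 2-fold or more, Add1, Myh10 and Tpm3, were all negative. They are 7.32% of the members, against 3.0% of all clones at that size in either direction. The members and all clones are not alike in printing. Of the 47 member clones 36 are averages of a pair of spots, while 2436 of the 5674 rows in all are single unlisted spots. How far averaging of spots changes these shares was not tested.

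**Figure D1:**
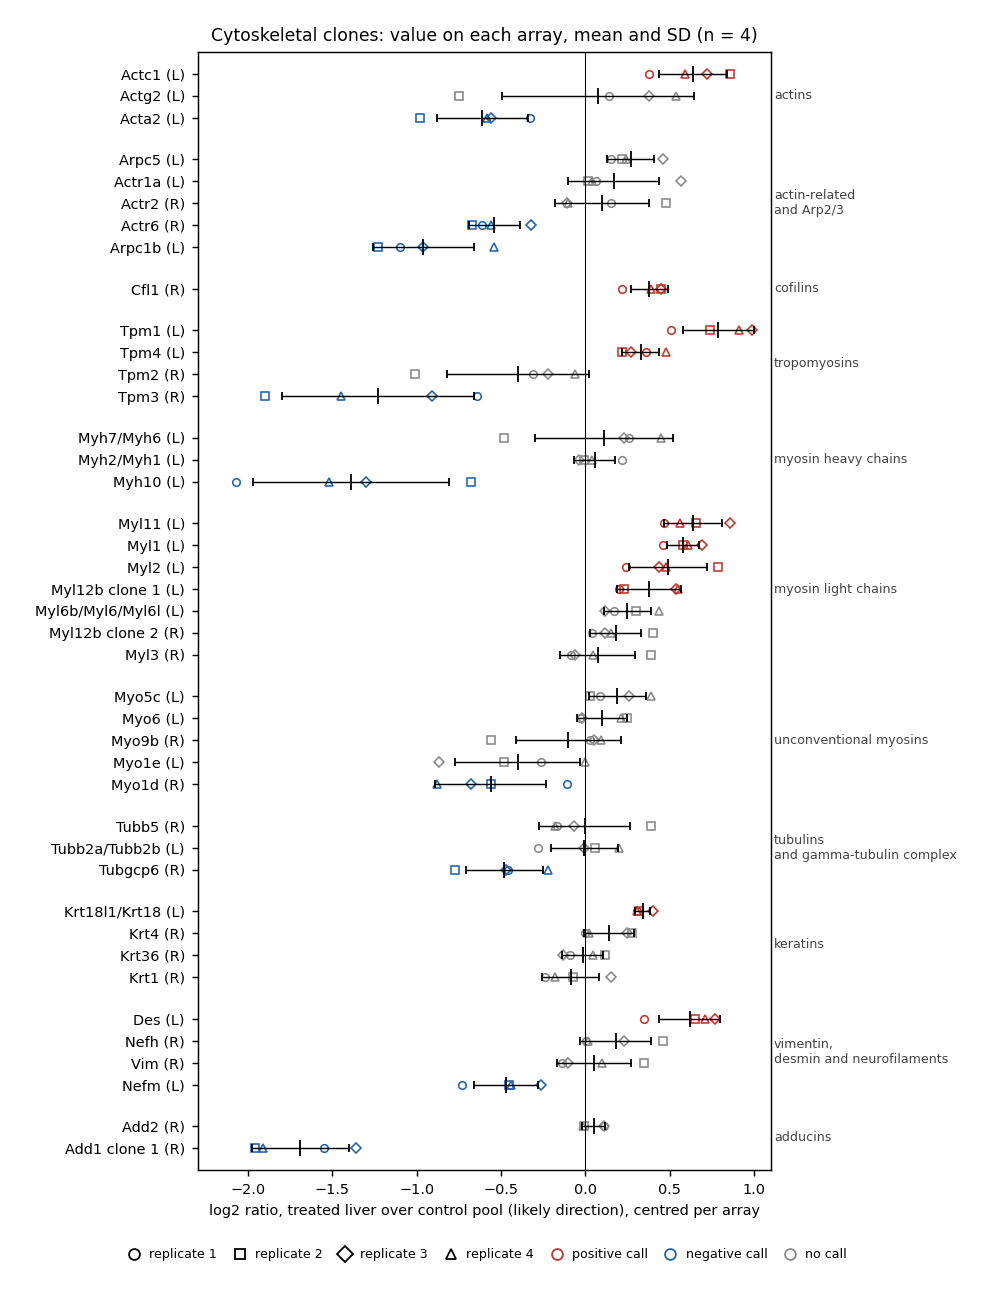
Log2 ratios (horizontal axis) of the 41 tested clones, by family; each open symbol is 1 array, the black tick and bar are the mean and SD of the 4, and colour gives the call. L and R after a name mark the left and right blocks of the inferred layout. Of the 10 positive calls, 9 are on the left, and the lowest means are those of Add1, Myh10 and Tpm3.

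Where a clone lay in an inferred layout went with its ratio. In a layout of 8 blocks of 31 by 31 spots read from the values, the ratios of all clones declined from left to right. Because the layout was read from these same ratios, the contrast between left and right is not independent of that choice. No printed coordinates were used to check it. In the left blocks 25.4% of all clones were called positive and 8.17% negative, and in the right blocks 1.38% and 22.1%. Of the members, 23 lay on the left, with 9 positive and 4 negative calls, and 18 on the right, with 1 positive and 5 negative. The exception on each side was a small set: Cfl1 was the positive call on the right, and Acta2, Arpc1b, Myh10 and Nefm were the negative ones on the left. Among 37 genes with clones in both sets of blocks, the left clones had the higher mean for 29, by a median of 0.45. The paired spots of each member lay in one block, so they do not bear on this.

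Removing a smooth surface over the spot positions from each array left 1 of the 10 positive and 6 of the 9 negative calls. Of all clones, 2.85% were then called positive and 11.3% negative. The positive call that held was Tpm1, and the negative ones were Add1, Myh10, Arpc1b, Tpm3, Acta2 and Nefm. The clone listed for Tubb2a and Tubb2b and that of Myo1e were called there, both negative, and not in the centred values. Values with the surface removed are given beside each member's call below. How much of any ratio stems from slide position was not tested.

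**Figure D2:**
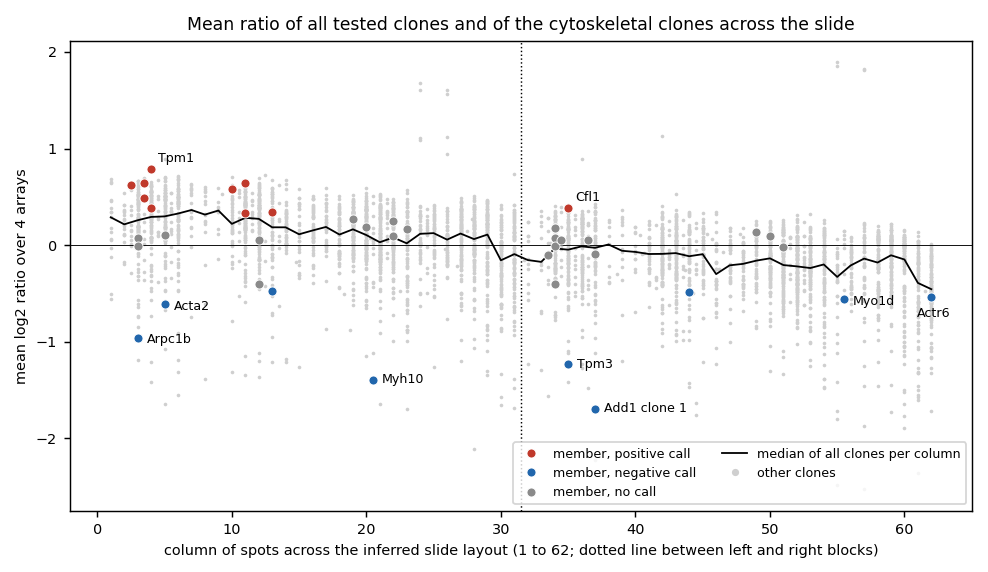
Mean log2 ratio (vertical axis) against the column of spots in the inferred layout (horizontal axis) for all tested clones (grey), with the median per column as a line and the members coloured by call. Positive members lie with the raised left columns apart from Cfl1 at 0.38, while Arpc1b at -0.96 and Acta2 at -0.61 lie on the left and below 0.

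Adducins cap the fast-growing ends of actin filaments and join them to the spectrin net under the plasma membrane. The tested clone of Add1, the widely expressed alpha subunit, had the lowest mean of all members, at -1.55, -1.96, -1.36 and -1.91 on replicates 1 to 4. All 4 arrays lay far below 0, with a mean of -1.69 ± 0.29 (SD, n = 4, limma adjusted p = 0.000374). This is 3.23-fold, and the mean was -1.73 ± 0.22 without the surface. A further clone of Add1, in the left blocks, had a ratio on replicate 4 alone, where it was 0.57. The pair of Add1 clones therefore differed in sign on the array that measured both. Add2, the beta subunit of red cells and brain, was at 0.049 ± 0.07 and not called, with ratios from -0.014 to 0.11.

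Non-muscle myosin heavy chains drive contraction of the cell cortex. Myh10, the heavy chain of non-muscle myosin IIB, was at -2.07, -0.68, -1.30 and -1.52 on replicates 1 to 4. Its arrays spread widely but did not reach 0, at a mean of -1.39 ± 0.58 (SD, n = 4, limma adjusted p = 0.00533), or 2.63-fold, and at -1.57 ± 0.60 without the surface. The clones of the sarcomeric heavy chains were not called. That of Myh1 and Myh2, of fast skeletal muscle, was at 0.056 ± 0.12, and that of Myh6 and Myh7, of heart, at 0.11 ± 0.41 with replicate 2 alone negative (-0.48). Without replicate 2 the Myh6 and Myh7 clone was at 0.31 (adjusted p = 0.0353), and with the surface removed it was at -0.14 ± 0.34. Myh11, the smooth muscle heavy chain, had no ratio on any array.

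The tropomyosins, rod-shaped proteins that lie along actin filaments and decide which myosins can bind, differed in sign. Tpm1 and Tpm4, with positive means, lay in the left blocks, and Tpm3 and Tpm2, with negative means, in the right ones. In this family the gene and the side of the slide therefore cannot be told apart by sign. Tpm1 was the highest member, at 0.51, 0.74, 0.99 and 0.91 on replicates 1 to 4. Every array was positive, with a mean of 0.79 ± 0.21 (SD, n = 4, limma adjusted p = 0.00533), or 1.73-fold. With the surface removed the mean of Tpm1 was 0.41 ± 0.23 (adjusted p = 0.0488), with replicate 2 at 0.74 and the others between 0.22 and 0.35. Tpm3, the gene of slow muscle and of short cytoplasmic isoforms, was at -0.64, -1.90, -0.91 and -1.45. It was negative on each array, at -1.23 ± 0.57 (adjusted p = 0.00749), or 2.34-fold, and kept that size without the surface (-1.17 ± 0.60). Tpm4, a cytoplasmic tropomyosin, was positive on all arrays between 0.22 and 0.48, at 0.33 ± 0.11 (adjusted p = 0.0388), but at -0.0065 ± 0.10 without the surface. Its call also ended without replicate 1, 3 or 4, at 0.32, 0.36 and 0.28. Tpm2 was at -0.40 ± 0.42 and not called, with replicate 2 at -1.01 and the others between -0.31 and -0.059. A spotted cDNA can bind transcripts of close homologues, and cross-hybridisation between the tropomyosins was not tested.

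Among the 3 tested actins, Acta2 and Actc1 differed in sign. Acta2, the smooth muscle actin of vessel walls and activated stellate cells, was at -0.33, -0.98, -0.56 and -0.58 on replicates 1 to 4. All arrays were negative although the clone lay in the raised left blocks, with a mean of -0.61 ± 0.27 (SD, n = 4, limma adjusted p = 0.0137) and of -1.0 ± 0.27 (adjusted p = 0.00609) without the surface. Actc1, the cardiac actin, was at 0.38, 0.86, 0.72 and 0.59. It was positive on each array, at 0.64 ± 0.20 (adjusted p = 0.00894), and was not called without the surface (0.30 ± 0.27, adjusted p = 0.109). Actg2, the smooth muscle actin of the gut, was not called at 0.078 ± 0.57, with replicate 2 at -0.75 and the others from 0.14 to 0.54. Actb, the main actin of non-muscle cells, is not a member under the rule and was at -0.11 ± 0.23 with no call.

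The actin-related clones included 2 negative calls of 5 tested. Arpc1b, a subunit of the Arp2/3 complex that is abundant in blood cells, was at -1.10, -1.23, -0.96 and -0.54 on replicates 1 to 4. Each array was below 0, with a mean of -0.96 ± 0.30 (SD, n = 4, limma adjusted p = 0.0047), and the arrays lay closer together without the surface, at -1.17 ± 0.10. The other measured parts of the complex were not called: Arpc5 was at 0.27 ± 0.14 and Actr2 at 0.10 ± 0.28, and Arpc2 had no ratio. Actr6, an actin-related protein of nuclear chromatin rather than of filaments, was at -0.54 ± 0.15 (adjusted p = 0.0114). It lay in the outermost right column and was at -0.26 ± 0.19 without the surface, not called. Actr1a, the actin-like core of dynactin, was at 0.17 ± 0.27 with replicate 3 alone above 0.065, at 0.57.

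Since Arpc1b is also a blood cell gene, the leukocyte and Kupffer cell markers are given here. Of 9 listed, 3 were measured: C1qb, a complement subunit made by Kupffer cells, was at -1.23 ± 0.53 and Cd74, the invariant chain of antigen-presenting cells, at -0.35 ± 0.07. Both were called negative with and without the surface, and Lyz2, the macrophage lysozyme, was at 0.18 ± 0.19 with no call. Of the red cell genes, Hbb was called negative at -0.88 ± 0.24 (-0.82 and called without the surface) and Alas2 was at 0.11 ± 0.22. The part of leukocytes and blood in the ratio of Arpc1b was not tested. Markers of stellate cells, a source of Acta2 and Des, did not move one way. Of 10 tested clones of that list, 3 were positive and 2 negative calls, Acta2 and Des among them. Over all clones 13.6% were called positive and 15.0% negative. The 3 positive ones lay in the left blocks, where 25.4% of all clones were called positive. Timp1 (0.30), Tagln (0.17), Col1a1 (-0.16), Col3a1 (0.19) and Vim (0.053) were not called. The collagen Col1a2 was at 0.39 ± 0.17 on its left clone and -0.58 ± 0.38 on its right one, and Lrat, which stores retinol as ester, at 0.40 ± 0.22. Without the surface these 3 clones were not called (0.32, -0.38 and 0.19), and Acta2 was the call of the list that held.

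Myosin light chains were the family with most positive calls, 4 of 7 tested and none negative. All 4 were among the 5 light chain clones in the left blocks, where 25.4% of all clones were called positive. Myl11, the regulatory light chain of fast skeletal muscle, was at 0.47, 0.66, 0.86 and 0.56 on replicates 1 to 4, with a mean of 0.64 ± 0.17 (SD, n = 4, limma adjusted p = 0.0079). Myl1, the essential light chain of the same muscles, was at 0.46, 0.58, 0.69 and 0.61, with a mean of 0.58 ± 0.10 (adjusted p = 0.00792). Myl2, the regulatory chain of the heart ventricle, was at 0.24, 0.79, 0.44 and 0.48, with a mean of 0.49 ± 0.23 (adjusted p = 0.0216). All 12 of these ratios were above 0, and all 3 clones lay in the left blocks. Without the surface they were at 0.26 ± 0.21, 0.22 ± 0.11 and 0.20 ± 0.23 and none was called. The call of Myl2 also ended without replicate 3 or 4, at 0.50 and 0.49. Myl3, the essential chain of ventricle, lay on the right and was at 0.073 ± 0.22 with no call.

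The non-muscle light chain Myl12b was measured by a clone on each side. The left one was at 0.20, 0.23, 0.54 and 0.55 on replicates 1 to 4, a mean of 0.38 ± 0.19 (SD, n = 4, limma adjusted p = 0.0363). The right one was at 0.041, 0.40, 0.12 and 0.15, a mean of 0.18 ± 0.15 with no call (adjusted p = 0.223). Both were positive on every array, yet without the surface their order was reversed, at 0.013 ± 0.09 on the left and 0.27 ± 0.19 on the right, with neither called. The call of the left clone ended without replicate 1, 3 or 4 (0.44, 0.33 and 0.32). The clone of Myl6, Myl6b and Myl6l, partner chains of non-muscle myosin, was at 0.25 ± 0.14 and not called.

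Cofilin severs old actin filaments and so recycles monomers. Cfl1, its non-muscle form, was at 0.22, 0.45, 0.45 and 0.39 on replicates 1 to 4, all positive. It lay in the right blocks, where 1.38% of clones were positive calls, but at column 35 of the layout, close to the left blocks. The mean was 0.38 ± 0.11 (SD, n = 4, limma adjusted p = 0.0266), and 0.24 ± 0.10 (adjusted p = 0.0726) without the surface. Each array was lower without the surface, at 0.18, 0.37, 0.15 and 0.26. The call ended without replicate 1, 3 or 4, at 0.43, 0.35 and 0.38, and it held at 0.20 (adjusted p = 0.0480) without both the surface and replicate 2. Cfl2, the muscle form, had ratios on 3 arrays, from -0.18 to 0.27.

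Unconventional myosins carry membranes and vesicles along actin. Of 5 tested, Myo1d, a membrane-bound motor, was called negative, at -0.11, -0.56, -0.68 and -0.88 on replicates 1 to 4. Replicate 1 was much nearer 0 than the others, and the mean was -0.56 ± 0.33 (SD, n = 4, limma adjusted p = 0.0235), or -0.35 ± 0.25 without the surface, not called. Its call ended without replicate 3 (-0.52) or replicate 4 (-0.45). Myo1e, a related motor of cell adhesions, was at -0.40 ± 0.37 with no call (adjusted p = 0.0723), ranging from -0.87 to -0.001. Without the surface it was called at -0.66 ± 0.31 (adjusted p = 0.0256). Myo5c, Myo6, a motor of endocytosis, and Myo9b had means from -0.10 to 0.19 and no call, and Myo5b had no ratio.

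The tubulin clones had means near 0 in the centred values. Tubb5, a widely expressed beta-tubulin, was at -0.0039 ± 0.27, with replicate 2 at 0.39 and the others between -0.18 and -0.064. The clone of Tubb2a and Tubb2b was at -0.0056 ± 0.20, a mean of unlike spots at -0.24 and 0.23. Without the surface it was called negative, at -0.34 ± 0.14 (limma adjusted p = 0.0440). Tubgcp6, a subunit of the gamma-tubulin ring that nucleates microtubules, was at -0.46, -0.77, -0.47 and -0.22 on replicates 1 to 4. It was negative throughout, at -0.48 ± 0.23 (SD, n = 4, adjusted p = 0.0218), and at -0.31 ± 0.15 (adjusted p = 0.0574) without the surface. The call of Tubgcp6 ended without replicate 1 or 3, both at -0.49. Tubgcp5, another subunit of the ring, had no ratio. No alpha-tubulin clone was among the members.

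Of 4 keratin clones, that of Krt18 and Krt18l1 was called. Krt18 is the acidic keratin of hepatocytes and bile duct cells. The clone was at 0.31, 0.32, 0.40 and 0.31 on replicates 1 to 4, with a mean of 0.34 ± 0.05 (SD, n = 4, limma adjusted p = 0.0319). This was the smallest spread between arrays of any member, yet the mean without the surface was 0.027 ± 0.11, not called. Its call also ended without replicate 1, 3 or 4, at 0.35, 0.31 and 0.34. The bile duct marker Spp1, also on the left, was at 0.43 ± 0.11, a positive call that did not hold without the surface, and its part in the ratio was not tested. The keratins of skin, mucosa and hair, Krt1, Krt4 and Krt36, had means from -0.086 to 0.14 and no call.

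Des and Nefm were the called clones among the other intermediate filaments. Des, desmin, was at 0.35, 0.65, 0.77 and 0.71 on replicates 1 to 4, each above 0. The mean of Des was 0.62 ± 0.18 (SD, n = 4, limma adjusted p = 0.00897), and 0.25 ± 0.25 without the surface, with no call. Nefm, the middle neurofilament subunit of nerve axons, was at -0.73, -0.45, -0.26 and -0.44. It was negative throughout in the left blocks, at -0.47 ± 0.19 (adjusted p = 0.0208), and at -0.69 ± 0.20 (adjusted p = 0.0103) without the surface. The call of Nefm ended without replicate 1, 3 or 4, at -0.38, -0.54 and -0.48. Nefh, the heavy neurofilament subunit, was at 0.18 ± 0.21, and Vim, the vimentin of mesenchymal cells, at 0.053 ± 0.22, with no calls.

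**Figure D3:**
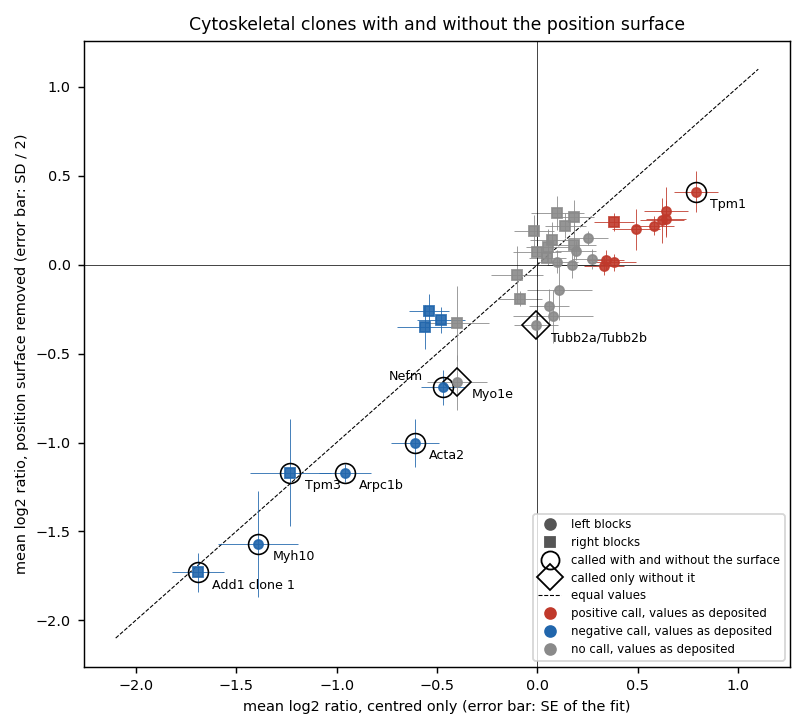
Mean log2 ratio of each member with the position surface removed (vertical axis, bars SD divided by 2) against the mean from centred values (horizontal axis, bars SE of the fit), with the dashed line at equal values. The red positive calls drop toward 0, with Tpm1 at 0.41 the only one circled as called both ways, while Add1, Myh10, Tpm3, Arpc1b, Acta2 and Nefm keep their negative calls.

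The arrays were not alike. Across all clones the ratios of replicate 2 correlated with the other arrays at r from 0.468 to 0.532, and the other pairs at 0.683 to 0.758. Over the 41 members these ranges were 0.718 to 0.796 and 0.870 to 0.894; the points share clones, slide positions and the control pool. Replicate 2 was the array farthest from the mean of the other 3 for 18 of the 41 members, or 43.9%, and for 50.2% of all clones. Without replicate 2 the members had 12 positive and 9 negative calls, and all 19 earlier calls held. Leaving out replicate 1, 3 or 4 gave 6, 5 and 5 positive calls and 7, 6 and 7 negative ones. The calls of Tpm1, Des, Myl1, Myl11, Actc1, Add1, Acta2, Myh10, Arpc1b, Tpm3 and Actr6 held without any 1 array.

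Repeated spots give a further view of the error. Of the members, 36 clones were printed as a pair of spots, which differed by a median of 0.11 on an array, against 0.085 for all 1911 clones printed in pairs. Both spots had ratios on all 4 arrays for 32 of the 36, and Add1 was not among these. The spots of Des had means of 0.61 and 0.63, and those of Actc1 of 0.66 and 0.62. The spots of Myh10, at -1.32 and -1.47, and of Tpm3, at -1.12 and -1.33, differed by 0.15 and 0.21. These are differences between means of 4 arrays, whereas the median of 0.11 is of differences on single arrays. Those of Arpc1b were at -0.71 and -1.20 and those of Acta2 at -0.38 and -0.84, each pair alike in sign. The spots of the Tubb2a and Tubb2b clone, at -0.24 and 0.23, differed in sign, so its mean near 0 averages unlike spots.

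Genes that regulate or bind these filaments were followed in lists of their own. Of 31 tested clones of actin-binding and actin-regulating genes, 8 were positive and 2 negative calls, with a median of -0.017, against 13.6% and 15.0% of all clones. The negative ones lay on the right and held without the surface: Cttn, cortactin, which steadies Arp2/3 branches, was at -0.92 ± 0.16 (SD, n = 4, limma adjusted p = 0.00286), and Coro1a, a coronin of leukocytes, at -0.73 ± 0.17 (adjusted p = 0.00533). Of the 8 positive calls, 7 lay on the left, led by Tmod1, a cap of slow filament ends, at 0.52 ± 0.17, Sptan1, the non-red-cell alpha-spectrin, at 0.50 ± 0.17 and Cnn3, an actin-binding calponin, at 0.51 ± 0.19. None of the 7 held without the surface, and Evl, which aids filament growth, was called negative there alone (-0.18 with it, -0.40 without). The eighth, Cnn1, the calponin of smooth muscle, lay on the right and was called both ways, at 0.34 ± 0.13 and 0.39 ± 0.18. A right-hand clone of Tmod1 was at -0.19 ± 0.07 with no call, against 0.52 on the left.

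Of 14 clones for microtubule-associated proteins and motors, 3 were positive and 3 negative calls, with a median of 0.063. Over all clones 13.6% were called positive and 15.0% negative. Stmn3, which sequesters tubulin dimers, was at -0.88 ± 0.23 (SD, n = 4, limma adjusted p = 0.00439). The kinesin light chains Klc1 and Klc4, which tie cargo to the motor, were at -0.72 ± 0.09 (adjusted p = 0.00439) and -0.63 ± 0.40 (adjusted p = 0.0229). All 3 held without the surface, at -1.03, -0.69 and -0.84. Crmp1, which binds tubulin in growing axons, was at 1.13 ± 0.44 and also held, while Dynll1, a dynein light chain (0.46 ± 0.14), and Kif1c, a kinesin (0.33 ± 0.10), on the left, did not.

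Of 5 clones of intermediate filament linkers, Jup, plakoglobin of the desmosome, at 0.51 ± 0.21, and Nes, nestin, at 0.42 ± 0.17, were positive calls (limma adjusted p = 0.0171 and 0.0261). Both lay in the left blocks, where 25.4% of all clones were called positive, and neither held without the surface. Of 5 further clones listed with the sarcomere, Tnnt2, the cardiac troponin T, was called at 0.63 ± 0.23 (adjusted p = 0.0107) and not without the surface (0.33 ± 0.23). Tnni3, Tnnt3 and Mybph on the right, at 0.27 ± 0.18, 0.15 ± 0.20 and 0.18 ± 0.13, had no call. Without the surface they were at 0.21, 0.25 and 0.16. Pygm, on the left, is a glycogen enzyme of muscle rather than a sarcomere part. It was at 0.28 ± 0.21 with no call, and at -0.0033 ± 0.17 without the surface. The skeletal muscle marker list had 1 measured gene, Tnnt3. The part of muscle RNA in the ratios of Actc1, Myl1, Myl2 and Myl11 was not tested.

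**Figure D4:**
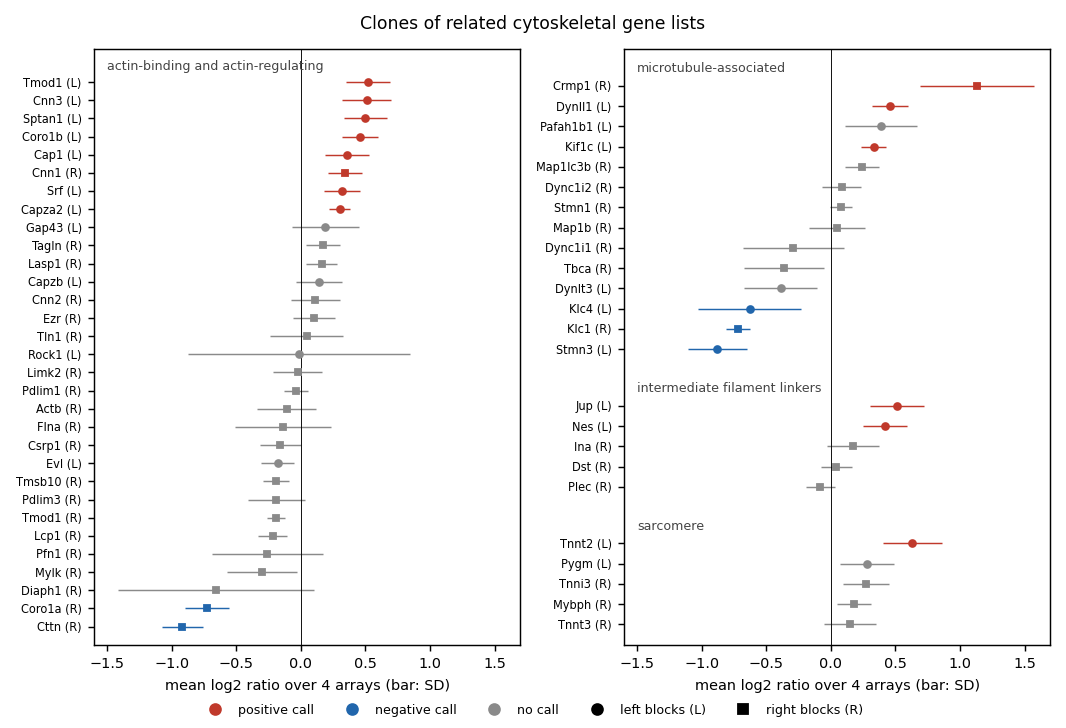
Mean log2 ratio with SD over 4 arrays (horizontal axis) for the tested clones of 4 related gene lists. Circles mark left and squares right blocks of the inferred layout, and colour gives the call. Most positive calls are circles, such as Tmod1 at 0.52 and Tnnt2 at 0.63, with Cnn1 and Crmp1 as squares, and the negative calls of Cttn, Coro1a, Klc1, Klc4 and Stmn3 stand on both sides.

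The liver samples were checked against hepatocyte markers, which have ratios and no levels here. Of 6 tested clones of that list, all had negative means, from -0.69 to -0.22, but only 3 had the same sign on all 4 arrays. Replicate 2 was the lowest array in each of them. Both Alb clones and Serpina1 were positive on replicate 1 (0.11, 0.12 and 0.12) and at -1.55, -1.6 and -1.53 on replicate 2. Tf, transferrin (-0.69 ± 0.20), and Fgb, fibrinogen beta (-0.49 ± 0.31), were called negative. Without the surface Tf was still called, at -0.66, and Fgb was not, at -0.38. Alb, the albumin gene, was at -0.54 ± 0.71 and -0.51 ± 0.76 on its clones, with no call. Of the lists for endothelial and mast cells, Kdr (0.40 ± 0.21) and Cma1 (0.69 ± 0.11) were called positive, of which Cma1 held without the surface (0.38) and Kdr did not (0.14), and Cdh5 was not called at -0.85 ± 0.85. Of the 47 member clones, Arpc2, Myh11, Myo5b and Tubgcp5 had no ratio on any array, the second Add1 clone had one on 1 array and Cfl2 on 3, and these 6 were not tested.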

How the data were processed

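Total liver RNA of ciprofibrate-treated rats was set against a control pool on 4 arrays, per the labels. The deposited values are log10 ratios, as read from their own steps: as thousandths of a linear ratio, at least 99.99% were whole within 0.02, against at most 3.07% in base 2. Scanner, background correction, normalization and filters: not given in the sources used here. No intensities are used here. The most repeated value of each array (1171 to 1189 of 7688 spots) was read as missing. Values were converted to log2, spots of one clone were averaged (5674 rows, of which 2436 are single unlisted spots) and every array was shifted to a median of 0 (shifts from -0.0786 to 0.0262). Names came from the platform annotation; of 5252 listed probes, 5169 had 1 symbol, 83 several. The 4704 with 4 ratios entered limma 3.58.1 under R 4.3.3 (lmFit, eBayes; mean against 0, two-sided, Benjamini-Hochberg, threshold 0.05), after the script was tested on simulated data. The pool is 1 control sample. SDs are over 4 arrays.

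The position surface is a robust loess (span 0.05, degree 1, 4 iterations) over the inferred layout. Other alternatives were no centring, quantile normalization, block medians, spots or genes as rows, values on at least 3 arrays, the repeated value kept, array weights and each array left out. The members, lists and alternatives were chosen with earlier results of these data known. Named are every called member, the 2 clones of smallest p in each of 11 families, up to 3 called genes per direction of a list (or the 2 of smallest p) and, outside this rule, further members by range and genes chosen after their values were seen (Actb, the second clones of Tmod1 and Col1a2, Lrat, Alb, Lyz2, Evl). If arrays shared a rat, p-values would measure technical spread. The same pool was set against every array, so an error of the pool would recur in all 4 ratios of a clone. As no dye is given, a dye effect on single clones was not tested. The p-values measure neither.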

Additional observations from a re-analysis of the deposited data

Results flagged for a closer look

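In 3 of the 41 tested clones 1 array stood apart from the other 3 by more than the limit of Dixon's test; about 1 group in 20 exceeds that limit by chance. Actr1a was at 0.57 on replicate 3, the clone of Krt18l1 and Krt18 at 0.40 on replicate 3, and Myo9b at -0.56 on replicate 2. The other ratios of Actr1a lay between 0.019 and 0.065, those of the Krt18l1 and Krt18 clone between 0.31 and 0.32, and those of Myo9b between 0.026 and 0.093.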

How the results depend on the processing

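The members had 10 positive and 9 negative calls. Positive calls numbered 1 with the position surface removed, 3 with replicate 2 also left out and 5 to 12 when 1 array was left out. Negative calls numbered 6 to 9 when 1 array was left out. With every spot as its own row, 17 calls were positive and 16 negative, but over 73 member rows in place of 41. Among all clones, 638 positive and 706 negative calls became 134 positive with the surface removed and 380 positive with block medians removed. They became 1148 and 1211 with array weights, and 993 and 462 with the repeated value kept, the latter over 5674 rows in place of 4704. They ranged from 99 to 872 and from 323 to 895 when 1 array was left out. A fit of 3 arrays has fewer samples. No centring, quantile normalization and values on at least 3 arrays ended no member's call, nor did array weights; with the repeated value kept, that of Nefm ended. Removing block medians ended those of Tpm4, Myl2, the left Myl12b clone, the Krt18l1 and Krt18 clone, Actr6 and Tubgcp6. Among the 24 members followed under each alternative, the sign of the mean turned for Tpm4 (-0.0065 without the surface, -0.017 with replicate 2 also left out), for the left Myl12b clone (-0.031) and the Krt18l1 and Krt18 clone (-0.017) without both, for the Myh7 and Myh6 clone (-0.14 without the surface, -0.027 without block medians) and for the Tubb2a and Tubb2b clone (0.10 with the repeated value kept, and from -0.075 to 0.085 when 1 array was left out). Of the other members, none of them called, Actg2 (-0.29), the Myh2 and Myh1 clone (-0.23), Actr1a (-0.0022), Krt36 (0.19) and Tubb5 (0.072) turned sign without the surface. The cause of these changes was not tested. Each mean rests on 4 arrays, without intensities to tell weak spots from strong ones.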
